A study of Mus musculus with 2 samples.

Results

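Expression of 7 inhibitory checkpoint genes was followed in single immune cells from mice immunised against a liver extract. The genes, chosen by name out of the 33696 in the files, were 5 receptors (Pdcd1, which encodes PD-1, Ctla4, Lag3, Tigit and Havcr2, which encodes TIM-3) and 2 ligands of PD-1 (Cd274, encoding PD-L1, and Pdcd1lg2, encoding PD-L2). Receptors were compared across T-cell and NK-cell classes and ligands across myeloid classes, in barcodes with at least 200 genes and at most 20% mitochondrial UMIs. The WT library came from Alb-WT Bicd2fl/fl mice, which carry floxed Bicd2 alleles and no Cre. The KO library came from Alb-Cre Bicd2fl/fl mice, in which Cre is driven by the albumin promoter and is therefore directed at hepatocytes and not at the immune cells measured here. Both groups received S-100, the high-speed supernatant of a mouse liver homogenate emulsified in complete Freund's adjuvant, as weekly intraperitoneal injections of 2.5 mg for 3 weeks, a model of autoimmune hepatitis. Interlayer cells of a Percoll gradient were freed of red cells, and living cells were sorted and pooled. Age, sex and the number of mice pooled are not given in the labels. Per the series text these are liver immune cells, whereas the sample labels call them peritoneal immune cells and carry the treatment tag HFD, a conflict that the labels do not settle.

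Checkpoint receptors are cell-surface proteins that dampen lymphocyte activation. PD-1 is induced by antigen-receptor signalling and recruits phosphatases when bound by PD-L1 or PD-L2, CTLA-4 competes with CD28 for CD80 and CD86 and is constitutive in regulatory T cells, and LAG-3, TIGIT and TIM-3 bind MHC class II, the poliovirus receptor family and ligands such as galectin-9. PD-L1 is inducible by interferon-gamma in many cell types, and PD-L2 is known mainly from dendritic cells and macrophages. In the liver these pathways are known for restraining T cells that meet antigen on sinusoidal and myeloid cells.

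There was 1 library per genotype, so no difference below has a replicate check, no test across samples exists, and a difference between the libraries cannot be told apart from a difference between the genotypes. Intervals are given at 95% and reflect counting error alone. The kept cells numbered 17080 (WT) and 15619 (KO), with 65156031 and 42128772 UMIs and a median depth of 2793 and 2003 UMIs. Haemoglobin took 15.4% and 38.7% of the UMIs over all deposited barcodes, and 70 kept barcodes occurred in both libraries. Levels are given as counts of a gene's UMIs scaled to the UMI total of the same class and library, in the usual CPM unit. Bicd2 was at 19.8 CPM in WT (interval 18.7 to 20.9) and 13.3 CPM in KO (12.2 to 14.4), which does not check a deletion directed at hepatocytes. Liver-resident macrophage (Kupffer cell) markers were present, Clec4f with 235 WT and 32 KO UMIs and Cd5l with 587 and 164. Gata6, which marks large peritoneal macrophages, had 1 and 11 UMIs. Classes were named from marker genes that exclude the 7 genes, and the 7 genes were left out of the clustering. Levels by class could still depend on the clustering, as was seen for regulatory-like and dividing T-like cells below.

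Across all kept cells 6 of the 7 genes had a lower level in the KO library, though for Pdcd1lg2 the intervals overlapped, and Havcr2 had a higher one. Haemoglobin took more of the deposited UMIs in KO, which lowers the CPM of other genes, and these levels were not corrected for it. Pdcd1 was at 10.2 CPM in WT and 2.75 CPM in KO, and about the same share of its UMIs lay in T-like cells in both (70.4% and 71.6%). Ctla4 was at 48.9 and 11.7 CPM, with 84.4% of its UMIs in T-like cells in WT and 60.8% in KO. Lag3 was at 12.8 and 6.29 CPM and Tigit at 12.6 and 2.99 CPM. These 4 receptors were thus lower in KO in the whole library, while their spread over cell types differed. NK-ILC1-like cells held the largest share of the Lag3 UMIs in WT (41.7%, with 28.2% in T-like cells), and plasmacytoid dendritic (pDC-like) cells held 51.3% of them in KO. Havcr2 was at 16.5 CPM in WT and 30.8 CPM in KO, and monocyte-macrophage-like and DC-like cells together held most of its UMIs in both libraries. Of the ligands, Cd274 was at 85.3 and 31.7 CPM. Pdcd1lg2 was at 14.7 CPM (13.7 to 15.6) in WT and 12.7 CPM (11.6 to 13.8) in KO. Neutrophil-like cells held 41.0% of the Cd274 UMIs in WT and 13.3% in KO.

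In T-like cells as a whole (5616 WT and 5206 KO cells), all 5 receptors were at least 2-fold lower in KO, a direction and size shared by 12.2% of the 13525 genes with enough UMIs. Pdcd1 had 466 UMIs in WT (22.9 CPM, interval 20.9 to 25.1) and 83 in KO (7.06 CPM, 5.62 to 8.75), which is 3.25-fold lower. Ctla4 had 2688 UMIs in WT (132 CPM) and 299 in KO (25.4 CPM), a KO to WT ratio of 0.192 (0.170 to 0.217). The ratio was 0.206 (0.134 to 0.305) for Lag3, which had 235 and 28 UMIs. None of these 3 intervals held 1. Tigit, which competes with the activating receptor CD226 for its ligands, had 563 and 64 UMIs and a ratio of 0.196 (0.149 to 0.255). Havcr2 had 184 and 22 UMIs and a ratio of 0.207 (0.126 to 0.322). The ratios of Ctla4, Lag3, Tigit and Havcr2 had overlapping intervals, while that of Pdcd1 lay above the interval of Ctla4.

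Depth differed between the libraries, so shares of cells were also taken after every cell was reduced to 1000 UMIs. T-like cells too shallow for this, 754 in WT and 912 in KO, were dropped. Pdcd1 was then seen in 2.30% of WT and 0.512% of KO T-like cells, and Ctla4 in 9.71% and 1.89%. Without thinning the shares were 6.52% and 1.23% for Pdcd1 and 21.1% and 4.23% for Ctla4. B-like cells were taken as the background for these receptors. Whether their UMIs came from free RNA or from the cells themselves was not tested. Pdcd1 was seen in 0 of 538 WT and 0 of 990 KO thinned B-like cells, which allows shares of up to 0.558% and 0.303%. For Ctla4 the B-like shares were 2.23% (WT) and 0.606% (KO), below the T-like shares. In KO T-like cells the share of Lag3 (0.233%) was below the 0.303% that 0 of 990 B-like cells allowed, and that of Havcr2 (0.116%) was close to the 0.101% of B-like cells. For both, the KO level in T-like cells could not be told apart from background at this depth. Tigit, at 3.25% of WT and 0.396% of KO T-like cells, stood above B-like cells in WT (0.186%), and in KO was close to the 0.303% that 0 of 990 B-like cells allowed.

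**Figure D1:**
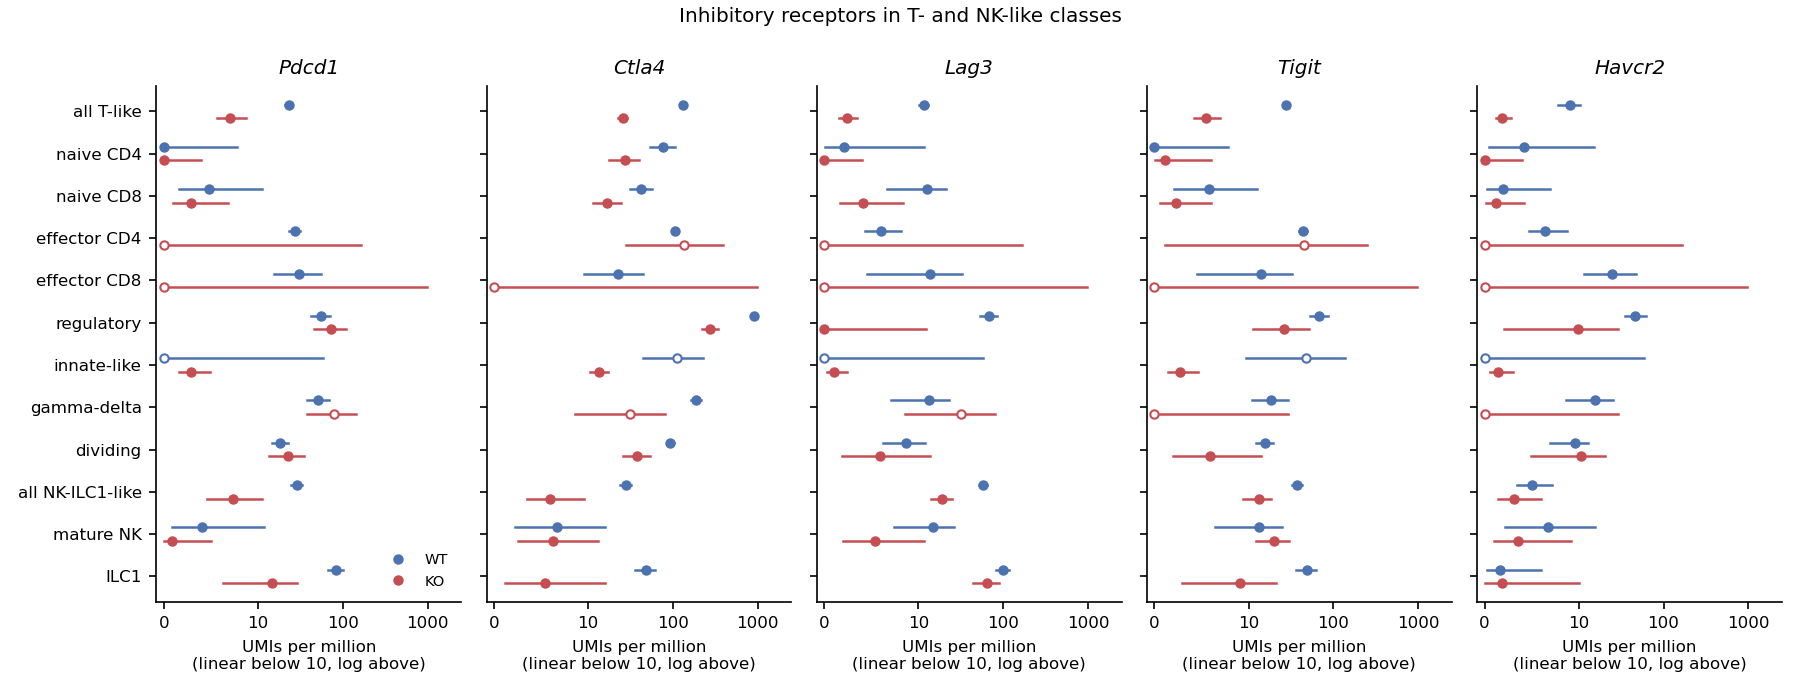
Levels of the 5 receptors, in CPM (linear below 10, logarithmic above), in T- and NK-like classes of the WT (blue) and KO (red) libraries, with 95% Poisson intervals and open circles for classes under 50 cells in that library. In all T-like cells each receptor lies lower in KO, for Ctla4 at 132 against 25.4, whereas Pdcd1 in regulatory-like cells lies at 55.1 in WT and 72.6 in KO.

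The T-like cells of the libraries were not of the same makeup. In WT, 1832 cells (32.6%) fell into an effector CD4-like subset, which holds 7 KO cells, and in KO 2496 cells (47.9%) fell into an innate-like subset marked by Zbtb16 and Il4, which holds 37 WT cells. In WT the effector CD4-like subset had 181 UMIs of Pdcd1 (27.2 CPM), 713 of Ctla4 (107 CPM), 292 of Tigit (43.8 CPM), 40 of Lag3 (6.0 CPM) and 43 of Havcr2 (6.46 CPM). The KO innate-like subset had 14 of Pdcd1 (2.92 CPM), 65 of Ctla4 (13.6 CPM), 13 of Tigit (2.72 CPM), 5 of Lag3 (1.04 CPM) and 7 of Havcr2 (1.46 CPM). The subset that dominated WT therefore carried more of each receptor than the subset that dominated KO, and levels are given within subsets that both libraries hold in number. A further 974 WT and 7 KO cells made up a cluster led by the neutrophil genes Camp, Ngp and S100a9, which stayed unnamed. Over all T-like cells the 12 neutrophil markers summed to 3637 CPM in WT and 561 CPM in KO, all 12 detected in both. With only the named subsets kept, the log2 ratios in T-like cells were -1.56 for Pdcd1, -2.45 for Ctla4, -1.95 for Lag3, -2.77 for Tigit and -1.80 for Havcr2, against -1.57, -2.34, -1.89, -2.16 and -1.81 in all T-like cells.

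Regulatory-like T cells, which were defined by Foxp3, Il2ra, Ikzf2 and related genes (328 WT and 136 KO cells), had the highest level of Ctla4 of all classes in both libraries, with no overlap with the next class. Ctla4 had 963 UMIs in WT (899 CPM, 843 to 957) and 84 in KO (277 CPM, 221 to 343), which is 3.24-fold lower. Lag3 had 73 UMIs in 40 WT cells (68.1 CPM) and 0 in KO, which is at least 6.88-fold lower when 3 UMIs are taken as the limit of a count of 0. Tigit, at 73 and 8 UMIs, was at 68.1 and 26.4 CPM with a ratio of 0.387 (0.161 to 0.804). Havcr2 had 50 UMIs in WT and 3 in KO, a ratio of 0.212 (0.0423 to 0.657). So 4 of the 5 receptors were at least 2-fold lower in KO regulatory-like cells, against 11.1% of the 7592 genes with enough UMIs there. Pdcd1 differed from these, with 59 UMIs in WT (55.1 CPM) and 22 in KO (72.6 CPM), a ratio of 1.32 whose interval (0.769 to 2.18) held 1. Neutrophil markers summed to 3738 CPM in WT regulatory-like cells (12 of 12 detected) and 419 CPM in KO (10 of 12, with Ltf and Ly6g at 0). With free RNA subtracted the log2 ratios in regulatory-like cells were -1.70 for Ctla4, -1.34 for Tigit and -2.25 for Havcr2, against -1.69, -1.34 and -2.13 before. The class depended on the clustering, however. At a finer one (Leiden resolution 2) it kept 276 of its 328 WT cells but 45 of its 136 KO cells, and 51 WT and 91 KO cells moved to a naive CD4-like cluster led by Gpm6b, Slamf6 and Nrp1. The regulatory-like class then had 281 WT and 45 KO cells, under the minimum of 50 for a comparison. In it Ctla4 was at 1019.6 and 510 CPM (ratio 0.50, 0.369 to 0.665), Lag3 had 73 and 0 UMIs, and Pdcd1 was at 57.2 and 173 CPM (ratio 3.03, 1.65 to 5.31). The ratios of Tigit (0.528, 0.140 to 1.41) and Havcr2 (0.555, 0.111 to 1.72) then held 1. Cells were also picked by a Foxp3 UMI, 195 in WT and 40 in KO, again too few in KO for a comparison. In those cells Ctla4 was at 851 and 394 CPM, Lag3 had 74 and 0 UMIs, and Pdcd1 was at 42.0 and 91.5 CPM.

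Cells with a naive signature carried little of the receptors except Ctla4. In naive CD4-like cells (213 WT, 498 KO) Ctla4 had 36 and 25 UMIs, at 75.9 and 26.9 CPM, a ratio of 0.355 (0.204 to 0.608), where 3.37% of genes were at least 2-fold lower. In naive CD8-like cells (351 WT, 716 KO) Ctla4 had 44 and 29 UMIs and a ratio of 0.399 (0.240 to 0.651), against 3.43% of genes lower by 2-fold or more. The other receptors had at most 2 UMIs per library in naive CD4-like cells, Pdcd1 none in either, so that no ratio could be formed. In naive CD8-like cells Lag3 had 13 and 7 UMIs and a ratio of 0.326 (0.110 to 0.878), and Pdcd1 had 5 in each library. B-like cells, taken above as the background, had Ctla4 at 13.7 CPM (WT) and 4.24 CPM (KO), a ratio of 0.310 (0.124 to 0.711). The estimate of free RNA per cell was 157 UMIs for WT and 97.7 for KO, again with the profile of all deposited barcodes and the same limit. With the estimated free RNA subtracted, the log2 ratio of Ctla4 was -1.45 in naive CD4-like cells and -1.24 in naive CD8-like cells, against -1.46 and -1.28 before.

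In dividing T-like cells (605 WT, 152 KO), marked by Mki67 and Top2a, 2 of the 5 receptors were at least 2-fold lower in KO, against 8.08% of all genes tested there. Ctla4 had 425 and 32 UMIs (92.7 and 37.9 CPM), with a ratio of 0.409 (0.276 to 0.586), and Tigit had 71 and 5 UMIs, with a ratio of 0.383 (0.121 to 0.936). Pdcd1 had 84 UMIs in WT (18.3 CPM) and 19 in KO (22.5 CPM), a ratio of 1.23 (0.705 to 2.04), and the intervals of Lag3 and Havcr2 also held 1. Markers of other cell types differed in this class, with the 10 B-cell markers at 31.4 CPM in WT and 433 CPM in KO and the 11 T-cell markers at 5789 and 3892 CPM, all detected in both. Erythroid markers summed to 18543 and 120472 CPM there. At the finer clustering 490 of the 605 WT cells but 41 of the 152 KO cells stayed in the class, while 9 WT and 108 KO cells went to an unnamed dividing cluster led by Ebf1, Bank1 and Cd79a. With 496 WT and 41 KO cells Ctla4 was at 96.5 and 64.7 CPM (ratio 0.671, 0.405 to 1.05) and Tigit had a ratio of 0.409 (0.0484 to 1.54), so that both intervals held 1. Gamma-delta-like cells (232 WT, 49 KO) were just under the cell minimum in KO. There Pdcd1 had 50 and 10 UMIs (51.5 and 78.5 CPM) and Ctla4 182 and 4 UMIs (188 and 31.4 CPM). At the main clustering the Pdcd1 level in regulatory-, dividing and gamma-delta-like cells had overlapping intervals in the libraries, and that of Ctla4 did not.

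**Figure D2:**
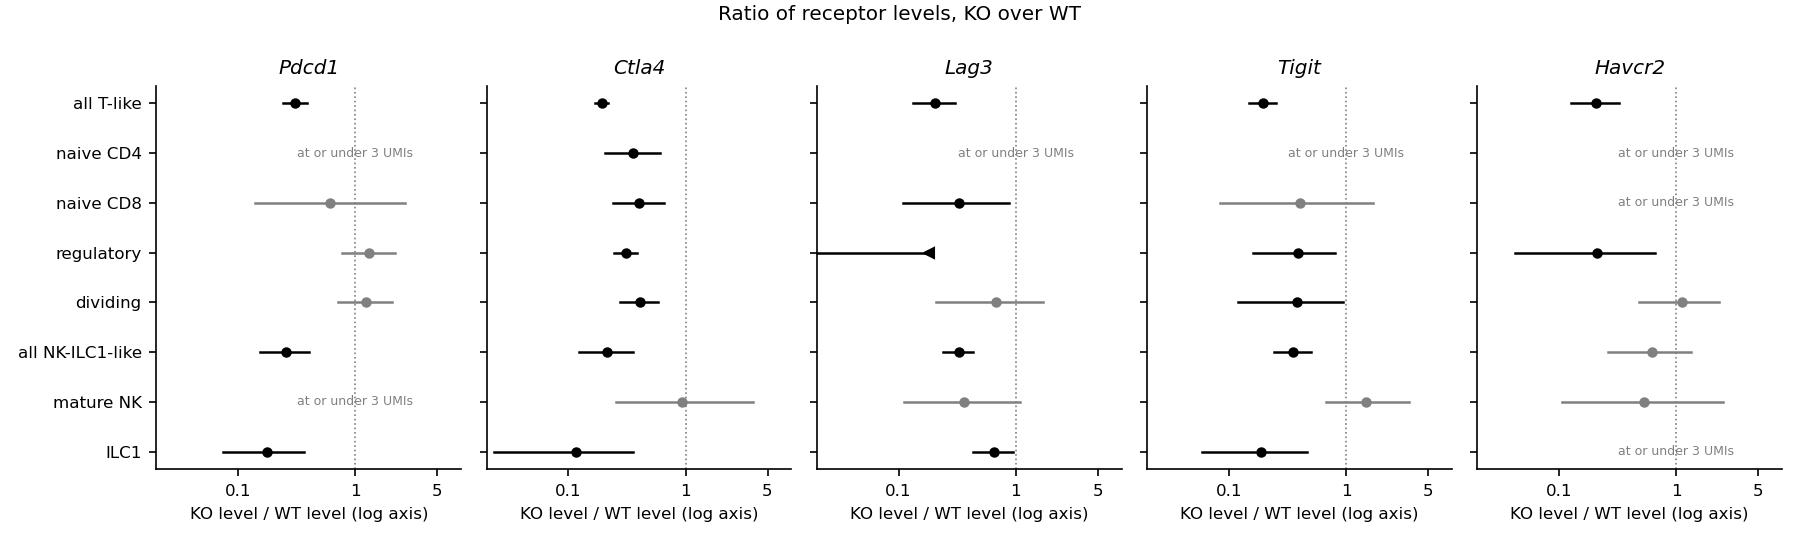
KO to WT ratio of receptor levels (logarithmic axis) with exact 95% counting intervals, in classes with at least 50 cells per library. Black intervals leave out 1 and grey ones hold it, a triangle marks the upper bound where KO had 0 UMIs, and the Pdcd1 ratio is 0.308 in all T-like cells but 1.32 in regulatory-like and 1.23 in dividing cells.

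The ratio over all T-like cells can be split by arithmetic into the makeup and the level within subsets. This used the 4 subsets with 50 or more cells in each library (naive CD4, naive CD8, regulatory and dividing), which held 35.3% of the T-like UMIs in WT and 32.3% in KO. For Pdcd1 the log2 ratio over these 4 subsets was -0.72 at each library's own makeup, and 0.30 with both at the WT makeup or 0.17 with both at the KO makeup. The lower Pdcd1 level over these subsets was thus not seen with makeup held equal. For Ctla4 the log2 ratio was -2.17 at the own makeup and -1.54 at the WT makeup, for Lag3 -2.17 and -1.80, and for Tigit -1.93 and -1.26. With both at the KO makeup the values were -1.52, -1.81 and -1.12. The dividing and regulatory-like classes used here are those that the finer clustering divides. Havcr2 went from -1.64 to -0.63 at the WT makeup and -0.90 at the KO makeup.

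Picking T-like cells by their own UMIs, without the T-cell subsets, gave lower Pdcd1 and Ctla4 levels in KO in each gate that held enough cells. The T-like lineage from which each gate was drawn still came from clustering. Among T-like cells with a Cd4 UMI and no Cd8 UMI (2708 WT, 799 KO) all 5 receptors were at least 2-fold lower in KO, against 12.1% of genes. Pdcd1 was at 26.2 and 11.9 CPM (ratio 0.454) and Ctla4 at 149 and 51.4 CPM (ratio 0.344). Havcr2 was at 115 UMIs in WT and 2 in KO, a ratio of 0.0879 (0.0105 to 0.325). Among those with Cd8 and no Cd4 (380 WT, 678 KO) the ratios were 0.420 for Pdcd1, 0.283 for Ctla4, 0.210 for Lag3 and 0.315 for Tigit, in a gate where 10.8% of genes were at least 2-fold lower, and the interval of Havcr2 held 1. Such a gate mixes naive and activated cells, whose shares differed between the libraries. T-like cells with a UMI of Zbtb16, the regulator of innate-like T cells, numbered 440 in WT and 1895 in KO. They were of different kinds, since 1395 of the KO cells but 13 of the WT cells were of the innate-like subset, and 350 WT cells lay in unnamed clusters. There Pdcd1 was at 27.0 and 5.79 CPM, a ratio of 0.215 (0.129 to 0.350), and Ctla4 at 73.7 and 18.4 CPM, a ratio of 0.25 (0.189 to 0.330), against 7.47% of genes at least 2-fold lower.

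More than 1 receptor was rarely seen in the same cell at 1000 UMIs. At least 1 of the 5 was seen in 751 of 4862 WT T-like cells (15.4%) and in 131 of 4294 KO cells (3.05%), and at least 2 in 74 (1.52%) and 4 (0.0932%). Of the WT cells 8 had at least 3 receptors, and of the KO cells none. In regulatory-like cells at least 1 receptor was seen in 57.6% of WT cells (51.7% to 63.4%) and 20.7% of KO cells (13.6% to 29.5%), and at least 2 in 40 of 288 WT cells and 0 of 111 KO cells, where 3 cells in place of 0 would give 2.70%. These counts are of the class as first clustered. Among WT T-like cells Ctla4 and Lag3 were seen together in 18 cells, where independence would give 4.76, and Ctla4 with Havcr2 in 13 cells, where it would give 4.08. The count under independence takes all T-like cells as 1 population, although regulatory-like cells alone held 146 of the 472 WT cells with a Ctla4 UMI.

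NK-ILC1-like cells (1624 WT, 1349 KO) showed the same direction, with 4 of the 5 receptors at least 2-fold lower in KO against 10.1% of all genes tested. Lag3 had 347 UMIs in WT (58.4 CPM, 52.4 to 64.8) and 54 in KO (18.9 CPM, 14.2 to 24.7), a ratio of 0.324. Tigit had 224 and 38 UMIs (37.7 and 13.3 CPM), and Pdcd1 171 and 21 (28.8 and 7.36 CPM), with ratios of 0.354 (0.244 to 0.50) and 0.256 (0.154 to 0.404). Ctla4 was at 27.8 and 5.96 CPM, while Havcr2 had 30 and 9 UMIs and an interval that held 1. The 10 erythroid markers summed to 38368 CPM in WT and 196279 CPM in KO in these cells, which lowers the CPM of every other gene in KO. The 11 T-cell markers summed to 2773 and 1336 CPM and the 12 neutrophil markers to 3594 and 463 CPM (Ly6g at 0 in KO), and their part in the receptor levels was not tested. With cells over 10% haemoglobin left out, the log2 ratios were -1.23 for Lag3, -1.28 for Tigit, -1.53 for Pdcd1 and -1.81 for Ctla4, against -1.57, -1.43, -1.83 and -2.05 with them. The makeup of this lineage differed as well, and its ratios were not taken at equal makeup. Mature NK-like cells, which had few receptor UMIs, numbered 243 in WT and 680 in KO. An unnamed cluster led by Spp1 and Crtam held 480 WT and 16 KO cells, and 1 led by Hbb-bt held 43 and 295.

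Within the lineage the WT level of Pdcd1 was highest in ILC1-like cells, tissue-resident relatives of NK cells marked by Tmem176b, Il7r and Cxcr6 (439 WT, 283 KO). They held 99 of its 171 WT UMIs but 58 of 224 for Tigit and 118 of 347 for Lag3. Pdcd1 had 99 UMIs in WT (82.5 CPM, 67.0 to 100) and 8 in KO (14.6 CPM, 6.29 to 28.7), which is 5.67-fold lower. In WT no class had a higher Pdcd1 level than ILC1-like cells, although the interval overlapped that of regulatory-like cells. Tigit had 58 and 5 UMIs and a ratio of 0.188 (0.0589 to 0.465), and Ctla4 57 and 3 UMIs and a ratio of 0.115 (0.0230 to 0.353). Lag3 differed less, with 118 and 35 UMIs (98.3 and 63.7 CPM) and a ratio of 0.648 (0.431 to 0.952). Thus 3 of the 5 receptors were at least 2-fold lower in KO ILC1-like cells, against 6.47% of genes, and the difference among the receptors themselves has no replicate check. Neutrophil markers in ILC1-like cells summed to 4296 CPM in WT and 564 CPM in KO (11 of 12 detected, with Ly6g at 0). With free RNA subtracted the log2 ratio of Pdcd1 in ILC1-like cells was -2.44, against -2.42 before, under the same limit of the subtracted profile. Mature NK-like cells (243 WT, 680 KO) had few receptor UMIs. Tigit there had 10 and 22 UMIs (13.4 and 19.8 CPM), a ratio of 1.47 (0.669 to 3.48), and the intervals of the other receptors with enough UMIs for a ratio also held 1. Different clusters held the mature NK-like cells of the libraries. A cluster of 369 WT and 72 KO cells led by the T-cell genes Cd8b1, Cd3e and Trac stayed unnamed, with Pdcd1 at 37.6 and 74.1 CPM. The KO level of Pdcd1 in that cluster lay above its WT level and above the 14.6 CPM of KO ILC1-like cells.

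Outside lymphocytes, Lag3 marked pDC-like cells and Havcr2 the myeloid classes. In the pDC subset (186 WT, 302 KO cells) Lag3 had 141 UMIs in WT (193 CPM) and 125 in KO (117 CPM), the highest Lag3 level of any class in both libraries, with a ratio of 0.604 (0.471 to 0.774). Erythroid markers summed to 20693 and 160957 CPM in this subset and B-cell markers to 56.2 and 348 CPM. In the wider pDC-like lineage (245 WT, 334 KO cells) the log2 ratio of Lag3 was -0.45, and -0.26 with haemoglobin left out of the total. At 1000 UMIs, Lag3 was seen in 9.17% of WT and 8.39% of KO pDC-like cells, with overlapping intervals (5.69% to 13.8% and 5.45% to 12.2%). Havcr2, which on myeloid cells is known to restrain responses to nucleic acids, was higher in KO in some but not all of the classes with its highest levels. In conventional dendritic cells of type 1 (cDC1-like, 260 WT and 228 KO cells), which cross-present antigen, Havcr2 had 263 and 387 UMIs, at 121 and 222 CPM, a ratio of 1.84 (1.57 to 2.16). In cDC2-like cells it was at 156 and 250 CPM, a ratio of 1.60 (1.33 to 1.92). In C1q macrophage-like cells it was at 34.9 and 84.7 CPM, a ratio of 2.43 (1.79 to 3.30), and 3.38% of genes were at least 2-fold higher there. Different clusters held these cells, and Havcr2 was at 18.6 and 84.3 CPM in the cluster of 52 WT and 240 KO cells (ratio 4.53, 1.71 to 17.0) and at 37.3 and 91.2 CPM in that of 411 WT and 13 KO cells (ratio 2.45, 0.871 to 5.57). Erythroid markers in C1q macrophage-like cells summed to 19352 and 97767 CPM. In nonclassical monocyte-like cells, also among the classes with the highest levels, the ratio was 1.23 (0.99 to 1.53). In classical monocyte-like cells it was 1.42 (0.971 to 2.08), and both intervals held 1. Havcr2 was therefore higher in KO in cDC1-, cDC2- and C1q macrophage-like cells and lower in KO in T-like cells. After thinning, Havcr2 was seen in 11.3% of WT and 16.0% of KO DC-like cells, whose intervals (8.68% to 14.3% and 13.2% to 19.2%) overlapped. In cDC1-like cells the log2 ratio moved from 0.87 to 0.16 when cells were thinned to 1000 UMIs.

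Other genes of the same pathways in T-like cells were taken from lists. Of 15 other co-inhibitory receptors, 10 had a ratio whose interval lay below 1 and 4 above. Over all genes tested in T-like cells 37.2% had such an interval below 1 and 23.9% above. On that list 5 genes were at least 2-fold lower, and the median log2 ratio was -0.47, against -0.08 over all genes. Lilrb4a, an inhibitory receptor of activated leukocytes, was at 112 CPM in WT and 13.5 in KO, and Cd5, which tunes T-cell receptor signalling, at 341 and 124. Nt5e, the adenosine-producing enzyme CD73, was higher in KO, at 53.5 and 83.8 CPM. Of 11 costimulatory receptors, 6 lay below and 4 above, with a median of -0.30. Tnfrsf4, which encodes OX40, was at 68.1 and 6.12 CPM, whereas Cd27 was at 42.4 and 88.3 CPM and Cd226, the activating partner of Tigit, at 840 and 954 CPM. Activating and inhibitory receptors thus both included members on each side. Of 18 regulators of exhaustion and checkpoint transcription, 11 lay below and 4 above. Tox2 was at 38.4 and 3.66 CPM, Tox at 325 and 369 CPM, and Tcf7, a factor of naive and memory T cells, at 187 and 328 CPM. Of 7 cytokines 5 lay below and 2 above, with Ifng at 79.1 and 10.7 CPM, Il21 with 270 and 4 UMIs, and Il4 at 5.81 and 61.9 CPM. Of 11 receptor signalling genes 7 lay below and 1 above, with the adaptor Trat1 at 272 and 126 CPM and the phosphatase Ptpn22 at 780 and 1005 CPM.

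In regulatory-like cells the neighbouring lists were split. Of 10 other co-inhibitory receptors with enough UMIs 5 lay below and 2 above, and of 11 costimulatory receptors 5 and 4, where 11% of all genes lay below and 9.13% above. Tnfrsf9, which encodes 4-1BB, was at 349 and 69.3 CPM and Tnfrsf4 at 420 and 85.8 CPM, while Cd96, another receptor of the Tigit ligands, was at 63.5 and 168 CPM. Ikzf2, which encodes Helios, was at 3748 CPM in WT and 1501 in KO, and Tcf7 at 185 and 591 CPM. Cells of the 2 libraries in this subset, which the finer clustering divides, therefore differed in genes beyond the receptors.

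The PD-1 ligands Cd274 and Pdcd1lg2 lie next to each other on mouse chromosome 19, and their promoters are shown because IRF1 is a known inducer of Cd274 downstream of interferon and Irf1 is compared with it below. The 250 bases before each annotated start are from RefSeq on GRCm38.p6 (6 of the 7 genes matched, both ligands on the plus strand), at chr19:29367188-29367437 for Cd274 and chr19:29410669-29410918 for Pdcd1lg2, with matches to the IRF core motif AANNGAAA or its reverse complement TTTCNNTT in capitals.
Cd274: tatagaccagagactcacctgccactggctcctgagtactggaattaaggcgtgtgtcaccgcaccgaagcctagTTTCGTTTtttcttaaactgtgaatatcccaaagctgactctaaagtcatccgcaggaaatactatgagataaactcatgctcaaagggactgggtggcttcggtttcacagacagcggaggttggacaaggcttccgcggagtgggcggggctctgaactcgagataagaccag
Pdcd1lg2: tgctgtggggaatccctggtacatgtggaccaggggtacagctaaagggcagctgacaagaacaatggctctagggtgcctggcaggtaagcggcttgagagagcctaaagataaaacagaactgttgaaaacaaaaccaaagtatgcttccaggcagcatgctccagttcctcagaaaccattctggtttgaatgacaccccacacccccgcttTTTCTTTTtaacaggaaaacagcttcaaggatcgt
In Cd274 the match TTTCGTTT lies 175 to 168 bases before the start, and in Pdcd1lg2 TTTCTTTT lies 35 to 28 bases before it. Pdcd1 also holds a match, TTTCCTTT, 28 to 21 bases before its start, and 21.3% of the 32851 promoters of this length hold at least 1. No member promoter matched the paired motif of GAAA, 2 bases of any kind and GAAA again (2.98% of promoters), on either strand. The AP-1 motif TGANTCA (6.75%) matched only Havcr2 among the 6, at 200 to 194 bases before the start.

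Cd274 was lower in KO in each of the 3 large myeloid lineages. In neutrophil-like cells (4308 WT, 1520 KO) it had 2278 UMIs in WT (177 CPM, 170 to 184) and 178 in KO (87.7 CPM, 75.3 to 102), a ratio of 0.496 (0.424 to 0.578), in a lineage where 15.7% of genes were at least 2-fold lower. In monocyte-macrophage-like cells (1689 WT, 1765 KO) it had 1070 and 283 UMIs, at 132 and 38.9 CPM, which is 3.39-fold lower, as were 6.26% of genes by 2-fold or more. In DC-like cells (590 WT, 659 KO) it had 309 and 92 UMIs, at 82.5 and 25.4 CPM, a ratio of 0.308 (0.242 to 0.390), with 3.85% of genes at least 2-fold lower. At 1000 UMIs per cell, Cd274 was seen in 17.1% of WT and 6.23% of KO neutrophil-like cells, in 11.2% and 5.66% of monocyte-macrophage-like cells, and in 8.78% and 1.98% of DC-like cells. Thinning left out 461 WT and 718 KO neutrophil-like cells. The background in erythroid-like cells was 0.666% in WT and 0.104% in KO. The Cd274 level in pDC-like cells was 20.1 and 14.0 CPM, with an interval of the ratio that held 1.

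**Figure D3:**
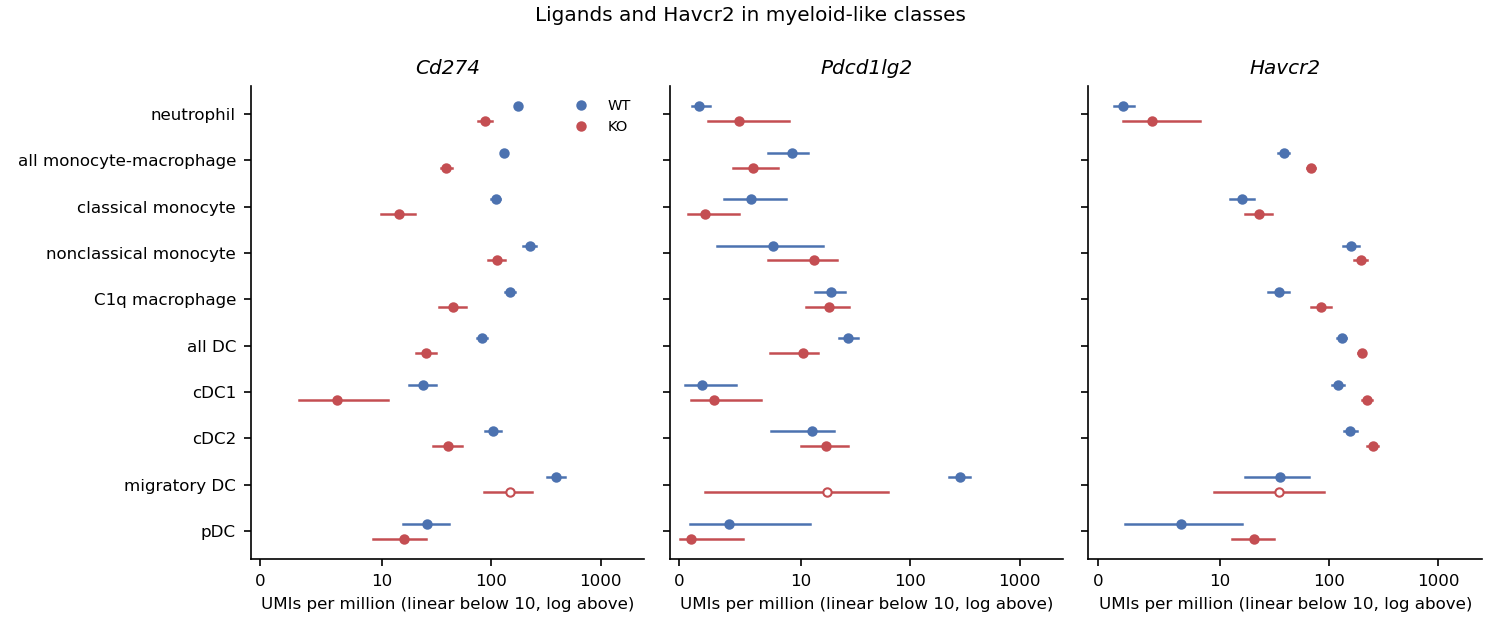
Levels of Cd274, Pdcd1lg2 and Havcr2, in CPM (linear below 10, logarithmic above), in myeloid-like classes of the WT (blue) and KO (red) libraries with 95% Poisson intervals. Cd274 lies lower in KO in neutrophil-like cells (177 against 87.7) and Havcr2 higher in cDC1-like cells (121 against 222), and open circles mark the 24 migratory DC-like cells of KO.

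Neutrophil-like cells fell into 4 clusters with different Cd274 levels. In the largest (2215 WT, 1301 KO cells) Cd274 had 1164 UMIs in WT (291 CPM) and 69 in KO (48.9 CPM), which is 5.95-fold lower, against 6.14% of genes at least 2-fold lower there. A cluster led by Acod1, Cxcl2 and Slc7a11 (402 WT, 78 KO) held the highest level in both libraries. Its 10 top genes also included the interferon-inducible genes Gbp5 and Cxcl10. Cd274 had 987 and 107 UMIs there, at 1329 and 750 CPM and a ratio of 0.564 (0.458 to 0.689). The next (1284 WT, 126 KO) had 108 and 2 UMIs, and the last (407 WT, 15 KO) 19 and 0. The ratio over all neutrophil-like cells was thus closer to 1 than that in the largest cluster, with 1301 of the 1520 KO cells in that cluster and the WT cells spread over clusters with more and with less Cd274.

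Among the myeloid subsets, Cd274 had a ratio interval below 1 in classical, nonclassical, C1q macrophage-, cDC1- and cDC2-like cells. In classical monocyte-like cells (668 WT, 412 KO) Cd274 was at 110 and 14.4 CPM, a ratio of 0.130 (0.0891 to 0.185), against 6.56% of genes at least 2-fold lower. The clusters of these cells differed in Cd274 level and in their numbers of WT and KO cells. In the cluster led by Cxcl10, Cxcl9 and Acod1 (280 WT, 32 KO) Cd274 was at 246 and 193 CPM, a ratio of 0.787 (0.487 to 1.21). In the cluster that held 381 WT and 21 KO cells it was at 25.2 and 34.0 CPM, a ratio of 1.35 (0.355 to 3.64). The main KO cluster of classical monocyte-like cells (359 KO, 7 WT) had 8 UMIs (3.75 CPM). In both clusters shared by the libraries the interval held 1, but each had under 50 KO cells, the minimum for a comparison. Such intervals cannot show that the levels were the same. The cluster with the high level was mostly of WT cells. In nonclassical monocyte-like cells (234 WT, 473 KO), which patrol vessels, Cd274 was at 224 and 113 CPM, a ratio of 0.502 (0.40 to 0.630), with different clusters holding the cells of each library. In C1q macrophage-like cells (476 WT, 253 KO) it was at 148 and 45.0 CPM, a ratio of 0.305 (0.223 to 0.409), with 7.98% of genes at least 2-fold lower. There the cluster led by Cd5l, Itga9 and C1qa (52 WT, 240 KO) was at 158 and 37.6 CPM, a ratio of 0.237 (0.147 to 0.386). Over all kept cells the Kupffer cell gene Clec4f was seen in 95 WT and 14 KO cells and Cd5l in 141 and 40. Most of the 240 KO cells thus had no UMI of either gene, and the cells compared in this cluster may differ in kind. The main WT cluster (411 WT, 13 KO), led by Ly6i, Lpl and Cfb, was at 142 and 167 CPM. In cDC1- and cDC2-like cells, each held by the same clusters in both libraries, the ratios were 0.264 (0.124 to 0.513) and 0.387 (0.269 to 0.547), where 4.15% and 6.65% of genes were at least 2-fold lower. Migratory DC-like cells, marked by Ccr7 and Fscn1, had the highest WT level of any class, 390 CPM in 83 cells, and 148 CPM in 24 KO cells. The 12 neutrophil markers summed to 13786 CPM in the WT cells (all detected) and 175 CPM in the KO cells (6 detected), and their part in the Cd274 level was not tested.

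**Figure D4:**
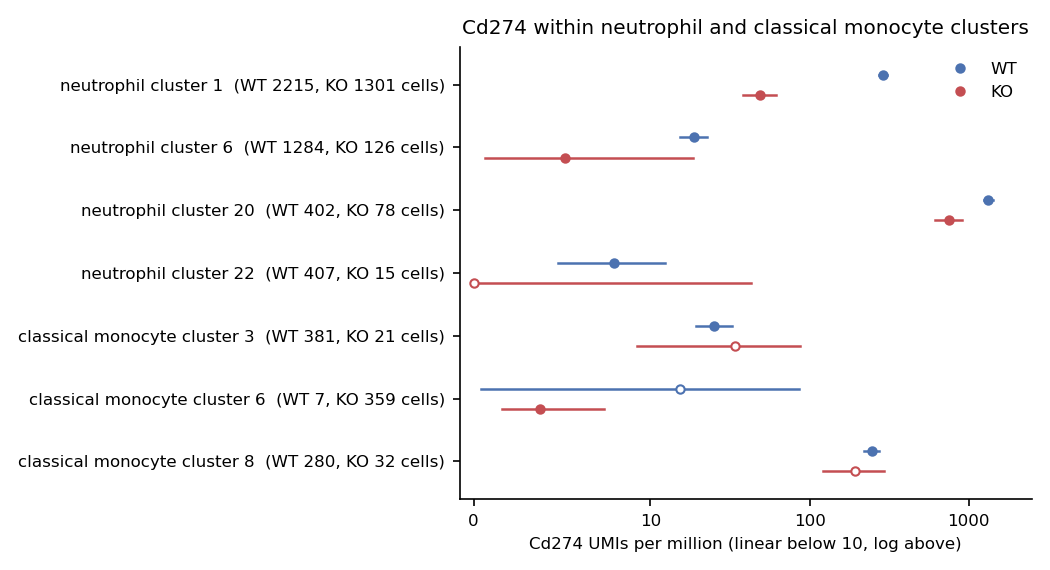
Cd274 level, in CPM (linear below 10, logarithmic above), in the clusters that make up neutrophil-like and classical monocyte-like cells, with cell numbers beside each name and 95% Poisson intervals. In neutrophil cluster 1 the level is 291 in WT and 48.9 in KO, whereas in classical monocyte cluster 8 it is 246 and 193 with overlapping intervals.

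Genes known to induce Cd274 were compared in the same cells. In monocyte-macrophage-like cells 9 of 13 had a ratio interval below 1 and 2 above, with 2 at least 2-fold lower and a median log2 ratio of -0.32 against -0.06 over all genes. Of all genes tested there 26.8% had an interval below 1 and 16.1% above. Irf1, an interferon-inducible transcription factor, was at 352 CPM in WT and 116 CPM in KO. Ifngr1, a receptor chain for interferon-gamma, was higher in KO, at 364 and 549 CPM. In DC-like cells 8 of 13 lay below and 2 above, against 23.6% and 9.48% of all genes, with Irf1 at 197 and 85.7 CPM. In neutrophil-like cells the list pointed the other way, with 2 below and 8 above against 20.2% and 23.7% of all genes, although Irf1 was at 405 and 312 CPM. Hif1a, the hypoxia factor that also acts on Cd274, was at 118 and 313 CPM there. In the largest neutrophil cluster Irf1 was at 689 and 341 CPM. Irf1 was thus lower in KO beside Cd274 in all 3 lineages, while the rest of the list differed between them.

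Of the other ligands of these receptors, 14 of 20 could be compared in monocyte-macrophage-like cells, 8 with an interval below 1 and 1 above. Over all genes tested in that lineage the shares were 26.8% below and 16.1% above. H2-Aa, a chain of the MHC class II molecule bound by LAG-3, was at 2792 CPM in WT and 1281 in KO, and Fgl2, a secreted fibrinogen-like regulator of immune cells, at 232 and 73.0 CPM. Cd80, which binds CTLA-4, was higher in KO in neutrophil-like cells, at 33.7 and 118 CPM.

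Pdcd1lg2 was a gene of migratory DC-like cells in WT and of lymphoid classes in both libraries. In WT, migratory DC-like cells had 80 UMIs (284 CPM, 225 to 353), with no overlap with the next class. In KO, 24 such cells had 2 UMIs (17.5 CPM, 2.12 to 63.1), which the cell minimum left without a comparison. In all DC-like cells Pdcd1lg2 had 102 and 38 UMIs, at 27.2 and 10.5 CPM, a ratio of 0.386 (0.258 to 0.565). In the DC-like subsets outside migratory DC-like cells the ratio held 1, in cDC1-like cells with 4 and 5 UMIs and in cDC2-like cells with 18 in each (12.8 and 16.9 CPM, ratio 1.32). In monocyte-macrophage-like cells Pdcd1lg2 was at 9.24 and 6.05 CPM, with a ratio of 0.655 (0.441 to 0.963) and a log2 ratio of -0.54, which was -0.12 with cells over 10% haemoglobin left out. In classical monocyte-like cells Pdcd1lg2 was at least 2-fold lower in KO with an interval below 1, against 6.56% of genes at least 2-fold lower. Its log2 ratio there ranged from -1.43 to -0.10 over the settings tried. In nonclassical monocyte-like cells its interval held 1, and in C1q macrophage-like cells it was at 18.7 and 18.2 CPM.

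T-like cells held close to equal shares of the Pdcd1lg2 UMIs, 47.5% in WT and 46.7% in KO. The level there was 22.4 and 21.3 CPM, a ratio of 0.951 (0.812 to 1.11), unlike that of Cd274, which was at 56.6 and 34.5 CPM with a ratio of 0.610 (0.544 to 0.684). In KO the innate-like subset carried 158 of the Pdcd1lg2 UMIs (33.0 CPM), 37 of them in a small cluster of 93 KO cells led by the immediate-early genes Nr4a3 and Egr3 (143 CPM). In WT an unnamed T-like cluster of 502 cells carried 100 UMIs (64.3 CPM). In NK-ILC1-like cells both ligands were lower in KO, Cd274 at 66.8 and 24.5 CPM and Pdcd1lg2 at 42.0 and 14.4 CPM. In B-like cells (613 WT, 1270 KO) they went opposite ways, Cd274 at 66.4 and 33.9 CPM (ratio 0.511, 0.371 to 0.700) and Pdcd1lg2 at 10.3 and 23.1 CPM (ratio 2.25, 1.24 to 4.32), with 3.31% of genes at least 2-fold lower and 1.83% at least 2-fold higher there.

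The order of levels across the 20 WT and 17 KO classes differed by gene. For Tigit regulatory-like cells came first in both libraries, with intervals that overlapped those of ILC1-like cells in WT and mature NK-like cells in KO. For Pdcd1 the order in WT was ILC1-, regulatory- and gamma-delta-like cells, with overlapping neighbours, and in KO regulatory-like cells stood above dividing cells without overlap. For Havcr2 the nonclassical monocyte-, cDC2- and cDC1-like cells led in both libraries, each overlapping its neighbour. For Cd274 the WT order was migratory DC-, nonclassical monocyte- and neutrophil-like cells with no overlap, and in KO nonclassical monocyte-, regulatory- and neutrophil-like cells overlapped. For Pdcd1lg2 in KO, ILC1-, innate-like and regulatory-like cells led with overlapping intervals.

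Over the 37 class and library points with at least 50 cells, the genes whose levels ran most like each member were found by Pearson's r of log2(CPM + 1) among 11995 genes, as a description in which points share libraries and depth. Pdcd1 ran most like Aplp1, Fam124b and Mtmr7 (r of 0.87 each), Ctla4 like Gm20275 and A430093F15Rik (both 0.87) and Ikzf4 (0.85), and Lag3 like Cd7 (0.79), Itgad (0.75) and Srgap3 (0.74). Tigit ran most like B930095G15Rik (0.92), Tnfrsf9 (0.88) and Pdcd1 (0.87). Among the members themselves this pair of receptors was the closest. Havcr2 ran most like Hfe (0.85), Gm2a (0.83) and Pmaip1 (0.82), and its r with the other receptors lay between -0.11 (Tigit) and 0.10 (Lag3). Cd274 ran most like Nfkbia (0.85), Gbp5 (0.82) and Irf1 (0.82), and Pdcd1lg2 like Ric1 (0.76), Mdfic (0.75) and Bcl2a1b (0.73). The 2 ligands had an r of 0.63 with each other.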

How the data were processed

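Droplet-based 3' single-cell RNA libraries, made with the 10x v3.1 kit per the labels' protocols, were analysed for 1 WT and 1 KO sample. The authors deposited, for each, a matrix of raw UMI counts per gene and barcode with no normalization. Per the matrix headers they were written by Cell Ranger 8.0.1, whereas Cell Ranger 6.0.1 appears in the submitters' processing notes, beside Seurat 4.3.0 and genome build mm39. No deposited barcode held fewer than 500 UMIs.

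Barcodes with fewer than 200 genes (1919 WT, 9283 KO) or over 20% mitochondrial UMIs (a further 111 and 75) were left out. Doublets were marked per library with Scrublet in scanpy 1.11.5 at 0.8% per 1000 barcodes and removed (3087 WT, 2056 KO). Cells of both libraries were clustered together on 2000 variable genes, 30 components and 15 neighbours with Leiden at resolution 1 (leidenalg 0.10.2), without the 7 genes, and T-like, NK-ILC1-like and myeloid-like cells were clustered again. A cluster was named X-like from at least 3 markers, each at least 2-fold higher and seen in at least 10% of its cells. No name was given where another type had more markers than its own among the 10 top genes, or, outside erythroid-like clusters, where the median haemoglobin share passed 10%. These naming thresholds were set after seeing the data, and the names are not those of the study.

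UMIs were summed per library and class and scaled to CPM, with exact Poisson intervals for levels and exact conditional binomial intervals for ratios (scipy 1.17.1). Classes with at least 50 cells and genes with at least 20 UMIs in both libraries together were compared. A gene at or under 3 UMIs in both libraries got no ratio, and 3 UMIs stood for a count of 0. Log2 ratios used a pseudocount of 1 CPM. Shares of cells carry Clopper-Pearson intervals after thinning to 1000 UMIs. The named genes were the 7 members, the 3 genes of most similar pattern to each, and 2 to 6 members of each pathway list, those with the most UMIs and the largest and smallest ratios. The members and lists were chosen with earlier results of these data known. For 1 list gene the values are not reported here.

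Values were recomputed with TMM (edgeR 4.0.16) or DESeq2 1.42.0 size factors, with doublets left in, with a pseudocount of 0.1 or 10, with a stricter filter (500 genes, 10% mitochondrial UMIs), with cells over 10% haemoglobin or haemoglobin genes left out, free RNA subtracted, and with thinned cells. Free RNA was given the profile of all deposited barcodes and not that of empty droplets. A further alternative, chosen after seeing the data, kept only the named sub-clusters. The intervals were tested on simulated counts.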

Additional observations from a re-analysis of the deposited data

Results flagged for a closer look

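Opposite KO to WT differences for 1 gene were found in 4 pairs of classes, whose log2 ratios had intervals on opposite sides of 0. The difference between the classes was not tested, since each rests on 1 library per genotype. Ctla4 had a log2 ratio of 1.5 in progenitor-like cells, with 46 UMIs in 508 WT and 8 in 59 KO cells, and of -2.91 in ILC1-like cells. Lag3 had a log2 ratio of 1.89 in progenitor-like cells, with 20 and 5 UMIs, whereas regulatory-like cells had 73 UMIs in WT and 0 in KO. Havcr2 had a log2 ratio of 1.46 in the pDC subset, with 5 and 22 UMIs, and of -2.13 in regulatory-like cells, with 50 and 3. Pdcd1lg2 had a log2 ratio of 1.17 in neutrophil-like cells, with 21 and 10 UMIs, and of -1.49 in NK-ILC1-like cells, with 250 and 41. Each of the 4 positive values rests on at most 22 UMIs in the KO library.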

How the results depend on the processing

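No paired analysis was possible because each group holds 1 library and the labels give no replicate numbers, so no replicate could be left out either. For 15 log2 ratios (5 receptors in T-like and in NK-ILC1-like cells, Cd274 in neutrophil-like cells, and both ligands in monocyte-macrophage-like and DC-like cells) 164 recomputed values were made, of which 145 stayed within the counting interval and 19 left it. No ratio whose interval left out 1 changed sign. With a pseudocount of 10 CPM the log2 ratios were -0.95 (Pdcd1), -2.01 (Ctla4), -0.80 (Lag3), -1.29 (Tigit) and -0.68 (Havcr2) in T-like cells, -1.16 (Pdcd1) and -1.24 (Ctla4) in NK-ILC1-like cells and -1.54 (Cd274) in monocyte-macrophage-like cells, as a larger pseudocount draws low levels together. With cells thinned to 1000 UMIs they were -2.67 (Ctla4), -1.67 (Lag3) and -2.78 (Tigit) in T-like cells, and for Cd274 -1.62 in neutrophil-like, -1.14 in monocyte-macrophage-like and -2.54 in DC-like cells. With at least 500 genes and at most 10% mitochondrial UMIs Ctla4 in T-like cells was at -2.16, and without cells over 10% haemoglobin Cd274 in monocyte-macrophage-like cells was at -1.51. With only the named sub-clusters Tigit in T-like cells was at -2.77, Pdcd1 in NK-ILC1-like cells at -3.06 and Cd274 in monocyte-macrophage-like cells at -1.54. For these the cause was not tested. Havcr2 in NK-ILC1-like cells, whose interval held 1, ranged from -0.80 to 0.39. Pdcd1 in regulatory-like cells, whose interval also held 1, was at 0.39, at -0.78 with thinned cells and at 1.10 with cells picked by Foxp3 UMIs. TMM scaling moved all genes by 0.16 in NK-ILC1-like, 0.12 in DC-like, 0.17 in pDC-like and -0.14 in neutrophil-like cells and by 0.23 in the pDC subset on the log2 scale, and the ratios there are to be read against that. Cd274 in neutrophil-like cells, at a ratio close to the 2-fold line, ranged from -1.62 to -0.86. At Leiden resolution 2 the regulatory- and dividing T-like classes had under 50 KO cells and gave no compared value. The share of genes at least 2-fold lower in T-like cells was 22.1% with a minimum of 1 UMI in place of 20, and 16.9% in monocyte-macrophage-like cells. By Spearman's rho in place of Pearson's r, 1 or 2 of the 3 most similar genes were the same for each member. Depth limits classes such as KO regulatory-like cells, with 136 cells, where 0 UMIs, taken as 3, allow up to 9.90 CPM.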
